A study of Danio rerio with 2 samples.

Results

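The 10 genes described here make, load or take back the transmitters of particular neuron classes: gad1b, gad2 and slc32a1 for GABA, th, dbh, ddc and slc18a2 for dopamine and noradrenaline, tph2 and slc6a4a for serotonin, and chata for acetylcholine. They were chosen by symbol, and all 10 are among the 23809 genes of the deposited table. The 2 libraries hold poly-A-selected RNA from entire zebrafish embryos aged 3 days post fertilization. Those of the first library had spent the time since 4 hours post fertilization in 20 µM of the triazole fungicide cyproconazole, and those of the second were untreated. The labels give both groups the genotype SAGFF(LF)53A mitfab692/+, so that treated and control embryos alike carried the named transgenic line and a mutant allele of the pigment cell regulator mitfa in heterozygous form. The labels name no vehicle, and RNA of 40 embryos was pooled for each library.

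Neurons are commonly classed by the transmitter they release, and each class is marked by a short set of genes. GABA, the main inhibitory transmitter of the brain, is made from glutamate by the glutamate decarboxylases Gad1 and Gad2 and is packed into vesicles by the transporter that slc32a1 encodes. Dopamine, noradrenaline and serotonin share the decarboxylase Ddc and the vesicle transporter of slc18a2, but differ in the first enzyme, which is tyrosine hydroxylase (th) for the catecholamines and tryptophan hydroxylase (tph2) for serotonin. Dopamine beta-hydroxylase (dbh) turns dopamine into noradrenaline, slc6a4a encodes a serotonin reuptake transporter, and choline acetyltransferase (chata) makes the acetylcholine of motor neurons.

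The whole reads recovered from the table sum to 20726375 in genes for the cyproconazole library and 18067935 for the control library. With 1 library per group there is no replicate check and no test, and a ratio describes the 2 libraries alone. Read ratios are cyproconazole over control after scaling to library size, and the range in brackets is a 95% exact binomial (Clopper-Pearson) interval that covers counting error only. FPKM, the number of fragments per kilobase of a transcript relative to sequencing depth, is used wherever levels of different genes are set side by side. Because the RNA came from whole embryos, fewer cells of a type and less RNA per cell cannot be told apart. Expressed markers of neurons (elavl3), neural progenitors and glia (gfap), liver (fabp10a), intestine (fabp2) and pigment cells (tyrp1b) were present in both libraries, as the label of a whole organism implies.

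Across the classes, the GABA synthesis genes gad1b and gad2 were lower in the cyproconazole library, dbh and slc6a4a were higher, and chata, ddc and slc18a2 had ratios close to 1. On the log2(FPKM + 1) scale 1 of the 10 genes, dbh, was at least 1.5-fold higher, against a background of 1.58% of 18621 genes, and 0 were at least 1.5-fold lower, against 1.71%. By reads the counts were the same, 1 higher and 0 lower, against backgrounds of 2.86% and 3.13% of 18633 genes with at least 50 reads. The counting interval lay above 1 for 2 members (dbh and slc6a4a), where 15.8% of all genes did so, and below 1 for 3 members (gad1b, gad2 and slc32a1), where 14.5% did so. Among genes with at least 1000 reads, which include gad1b, gad2, slc32a1 and slc6a4a, 22.7% had an interval above 1 and 21.0% below 1. These shares are also the background for the gene lists described further on. All 10 members passed the minimum of 50 reads, with slc18a2 the shallowest at 82 reads over both libraries and gad2 the deepest at 5676. The members' median difference was -0.03 on the log2(FPKM + 1) scale and 0.01 as a log2 read ratio, against 0.02 and 0.01 over all genes measured.

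**Figure D1:**
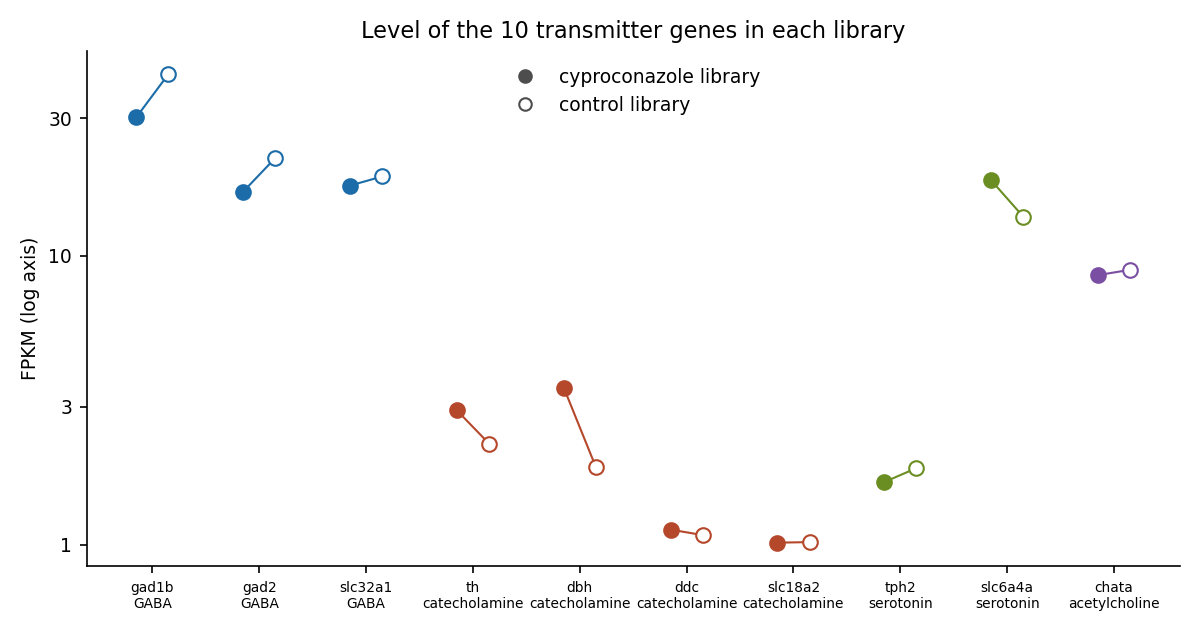
FPKM (log axis) of the 10 genes in the cyproconazole library (filled circle, left of each pair) and the control library (open circle, right), coloured by transmitter class, with 1 library per group and no error bars. The GABA genes lie between 16.7 and 42.6 FPKM and slope up towards the control, while dbh has 3.50 FPKM in the cyproconazole library and 1.86 FPKM in the control.

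Levels spanned a wide range, and their order was nearly the same in both libraries. In the cyproconazole library the order by FPKM was gad1b, slc6a4a, slc32a1, gad2, chata, dbh, th, tph2, ddc and slc18a2, from 30.2 down to 1.02 FPKM. In the control it was gad1b, gad2, slc32a1, slc6a4a, chata, th, dbh, tph2, ddc and slc18a2, from 42.6 down to 1.02 FPKM. The orders differ in 2 pairs that traded places, slc6a4a with gad2 and dbh with th. With 1 library per group, the spread that would tell neighbours in these orders apart is not known. The 3 GABA genes together summed to 64.4 FPKM in the cyproconazole library and 83.3 FPKM in the control, and the 4 catecholamine genes to 8.56 FPKM in the cyproconazole library and 6.20 FPKM in the control. The 2 serotonin genes summed to 19.9 FPKM in the cyproconazole library and 15.5 FPKM in the control.

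Among the GABA genes, gad1b (ENSDARG00000027419), which makes most of the GABA of the cell body in mammals, had 30.2 FPKM and 1899 reads in the cyproconazole library, against 42.6 FPKM and 2146 reads in the control. Its read ratio was 0.769 (0.723 to 0.819), and its FPKM ratio of 0.710 lay below that interval. Of 18633 genes measured, 7.49% had a read ratio as low or lower, and of the 6939 genes with at least 1000 reads, 3.06% did. The second decarboxylase gene, gad2 (ENSDARG00000015537), whose product makes GABA mainly at nerve endings in mammals, had 16.7 FPKM and 2706 reads in the cyproconazole library, against 21.8 FPKM and 2970 reads in the control. This gave a read ratio of 0.792 (0.751 to 0.835), at or below which 9.02% of all genes measured and 3.88% of the genes with at least 1000 reads lay. Both decarboxylase genes were thus lower by a similar factor, and their counting intervals overlapped. For gad2 the choice of read pair is less certain than for the other members, since the next best pair, 2162 reads in the cyproconazole library and 3442 in the control, would give a ratio of 0.546. Its FPKM ratio of 0.765 was much nearer to the ratio of the pair that was kept.

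The vesicle transporter gene slc32a1 (ENSDARG00000059775), which also serves glycine neurons, had 17.5 FPKM and 1589 reads in the cyproconazole library, against 18.8 FPKM and 1504 reads in the control. Its read ratio was 0.918 (0.855 to 0.986), closer to 1 than those of both decarboxylase genes, and its interval did not overlap theirs. A ratio as low or lower was common, with 26.6% of all genes measured and 20.1% of those with at least 1000 reads. Within a library, gad1b had 1.72 times the FPKM of slc32a1 with cyproconazole and 2.26 times in the control, and gad2 had 0.953 times that FPKM with cyproconazole and 1.16 times in the control. The summed reads of the 3 GABA genes, 6194 in the cyproconazole library and 6620 in the control, had a ratio of 0.813 (0.785 to 0.842). This interval takes the kept read pair of gad2 as given. Without gad2 the summed ratio was 0.831 (0.793 to 0.870).

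The same direction was seen in most other genes of GABA handling. Of 7 measured genes for GABA uptake, breakdown and the remaining decarboxylase, 5 had a counting interval below 1 and 0 above 1, with a median log2 read ratio of -0.33, where 14.5% of all genes and 21.0% of those with at least 1000 reads had an interval below 1. The neuronal GABA reuptake transporter genes slc6a1b and slc6a1a had 31.6 and 19.1 FPKM in the cyproconazole library, against 40.9 and 24.1 FPKM in the control. Their reads gave ratios of 0.766 (0.730 to 0.804) for slc6a1b and 0.798 (0.736 to 0.864) for slc6a1a. The GABA transaminase gene abat, which breaks GABA down, had a read ratio of 0.825 (0.774 to 0.880). The uptake transporter gene slc6a13, which in mammals acts mainly outside neurons, had 3.26 FPKM in the cyproconazole library and 5.06 FPKM in the control, a read ratio of 0.634 (0.532 to 0.755), and was the single gene of the list past 1.5-fold by reads. Against this direction stood gad1a, the paralog of gad1b, with 154 reads in the cyproconazole library and 124 in the control, a ratio of 1.08 (0.847 to 1.38) that holds 1. At 3.11 FPKM in the cyproconazole library and 2.72 FPKM in the control it was expressed far below gad1b.

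**Figure D2:**
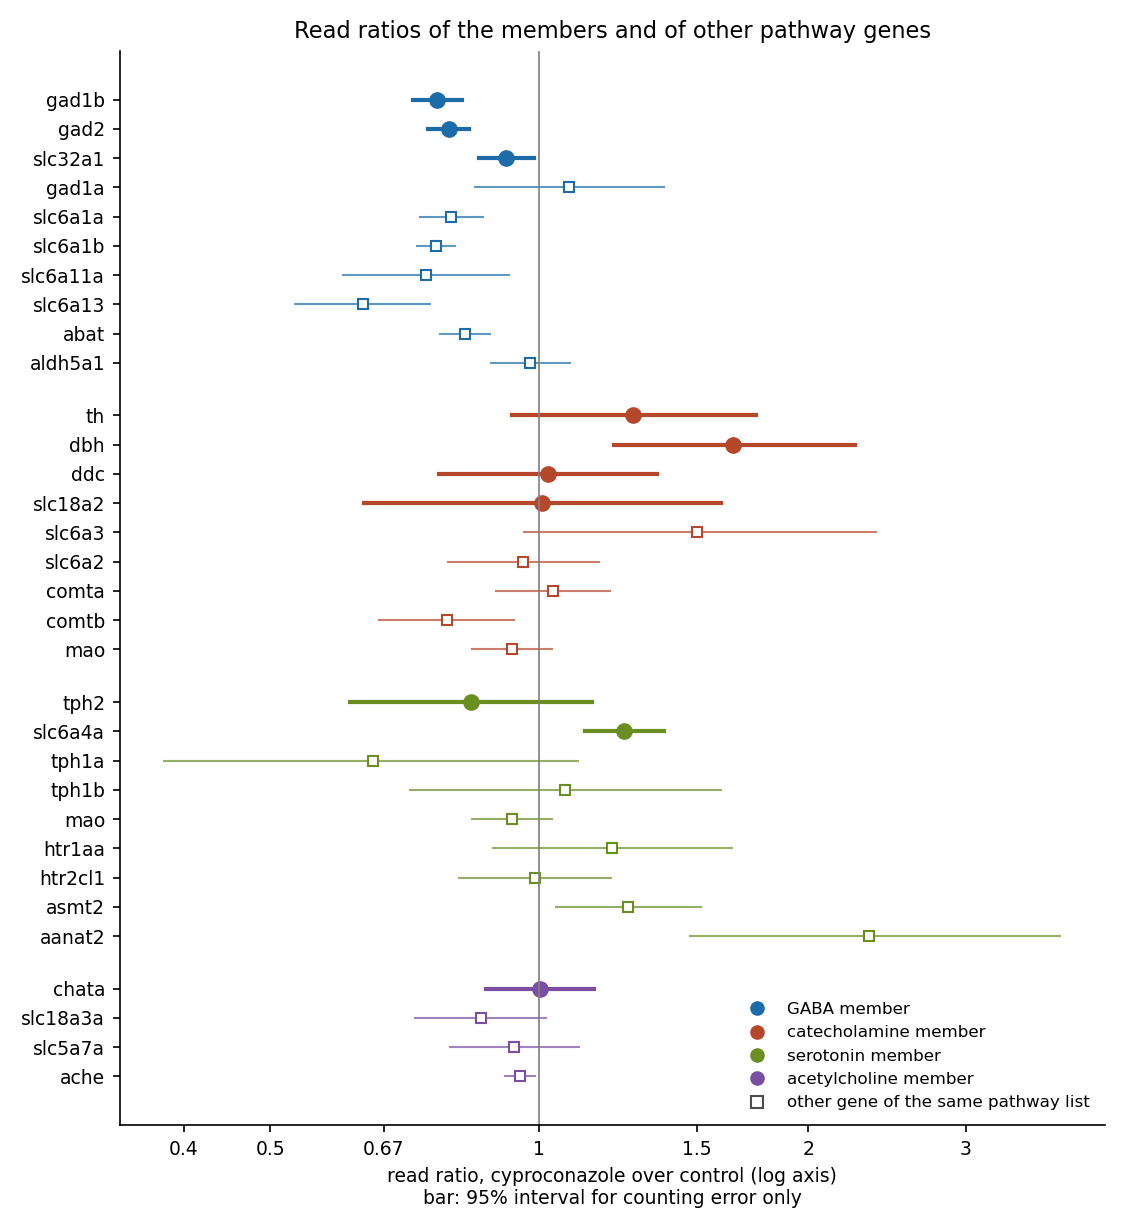
Read ratio of cyproconazole over control (log axis) for the 10 members (filled circles) and the other measured genes of each transmitter's pathway list (open squares), with bars for the 95% counting interval. The bars of gad1b, gad2, slc32a1, slc6a1a, slc6a1b, slc6a11a, slc6a13, abat, comtb and ache lie wholly left of 1. Those of dbh, slc6a4a, asmt2 and aanat2 lie wholly right of it, and those of chata, ddc, th, tph2 and slc18a2 cross it. The gene mao stands on 2 lists and is drawn in each.

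Lower values were not limited to GABA genes. Of 27 measured pan-neuronal genes, 14 had a counting interval below 1 and 3 above 1, with a median log2 read ratio of -0.09, and their summed FPKM was 1402 in the cyproconazole library and 1447 in the control. Over all genes 14.5% had an interval below 1 and 15.8% above 1, and among genes with at least 1000 reads 21.0% and 22.7%. Among the lower genes, the vesicle fusion gene stxbp1a was at 0.848 (0.817 to 0.881), the vesicle protein gene sv2a at 0.807 (0.773 to 0.843) and the microtubule gene map1b at 0.775 (0.717 to 0.836). The 3 genes with an interval above 1 also belong to the synapse or the axon, namely snap25b at 1.10, gap43 at 1.08 and snap25a at 1.04. By FPKM, however, snap25a had a ratio of 0.990. The gene map2, counted among the lower genes at 0.910 by reads, had an FPKM ratio of 1.20. Of the general neuron markers, elavl3 had a ratio of 0.989 (0.950 to 1.03) and its paralog elavl4 one of 0.957 (0.926 to 0.989). The FPKM ratio of elavl3, 0.901, lay below its interval. Of 12 measured genes of glutamate and glycine handling in neurons or glia, 6 had an interval below 1 and 0 above 1, with a median of -0.11. Among them the vesicular glutamate transporter genes slc17a7a and slc17a6b had ratios of 0.709 (0.606 to 0.829) and 0.820 (0.739 to 0.911), and the glial glutamate uptake genes slc1a2a and slc1a2b had 0.623 (0.488 to 0.793) and 0.872 (0.847 to 0.899). The glycine transporter gene of neurons, slc6a5, had 1.002 (0.926 to 1.08). Of 7 genes of retinal amacrine cells, many of which release GABA, 4 had an interval below 1, gad1b itself among them, and 0 above 1. Their summed FPKM was 213 in the cyproconazole library and 227 in the control, with no gene at 0. These sums also hold gad1b, at 30.2 FPKM in the cyproconazole library and 42.6 FPKM in the control, so they are not separate from that member. One of the lower genes on both of these lists, the glycine transporter gene slc6a9, had a read ratio of 0.923 but an FPKM ratio of 1.24, with 38.3 FPKM in the cyproconazole library and 30.8 FPKM in the control, so that its measures differ in direction. The part of these other neurons and glia in the gad1b and gad2 values was not tested.

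Regulators of GABA neurons did not share 1 direction. Of 12 measured genes, 2 had an interval below 1 and 2 above 1, which is near the shares of 14.5% and 15.8% over all genes. The forebrain regulators dlx1a and dlx2a, which drive GABA neuron formation, had ratios of 0.748 (0.609 to 0.918) and 0.804 (0.682 to 0.948). On the same list dlx5a had 0.948 (0.825 to 1.09) and dlx6a 0.787 (0.612 to 1.01), both intervals that hold 1. In whole embryos the reads of these dlx genes need not come from the forebrain alone. The genes lhx5 and gata2a were higher, at 1.27 (1.14 to 1.43) and 1.39 (1.19 to 1.62), and gata2a is also active in blood and vessels. The FPKM ratio of gata2a, 1.17, lay below its interval.

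In the catecholamine class dbh (ENSDARG00000069446) had the highest read ratio, although its counting interval overlapped those of th, ddc and slc18a2. It had 3.50 FPKM and 125 reads in the cyproconazole library, against 1.86 FPKM and 66 reads in the control, a read ratio of 1.65 (1.21 to 2.25). Of all genes measured, which include deeper ones with less scatter, 1.57% had a ratio as high or higher. No share among genes of like depth was computed for dbh. Its product is specific to cells that make noradrenaline or adrenaline, which in the embryo are found in the locus coeruleus, the hindbrain, the sympathetic ganglia and the chromaffin cells of the interrenal. The FPKM ratio of 1.88 lay within the counting interval of the reads.

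The rate-limiting enzyme gene of the class, th (ENSDARG00000030621), had 2.92 FPKM and 104 reads in the cyproconazole library, against 2.24 FPKM and 71 reads in the control. Its read ratio of 1.27 (0.933 to 1.75) held 1, and at this depth no difference could be detected. Within the cyproconazole library th had 0.834 times the FPKM of dbh, and within the control 1.21 times. For ddc (ENSDARG00000016494), which acts in all monoamine neurons and also in liver, gut and kidney, the level was 1.13 FPKM in the cyproconazole library and 1.08 FPKM in the control, and 211 reads over both libraries gave a ratio of 1.02 (0.772 to 1.35). The vesicle transporter gene slc18a2 (ENSDARG00000015110), which loads dopamine, noradrenaline and serotonin alike, had 1.02 FPKM in both libraries, with 44 reads in the cyproconazole library and 38 in the control. Its ratio of 1.01 (0.637 to 1.60) leaves room for differences of up to about that size in either direction. The summed reads of the 4 genes, 387 in the cyproconazole library and 272 in the control, had a ratio of 1.24 (1.06 to 1.45), and without dbh 1.11 (0.918 to 1.33), an interval that holds 1.

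Other genes of catecholamine handling mostly had intervals that hold 1. Of 5 measured, 1 had an interval below 1, the breakdown enzyme gene comtb at 0.788 (0.662 to 0.938), and 0 above 1. Over all genes 14.5% had an interval below 1 and 15.8% above 1. The noradrenaline transporter gene slc6a2, which takes back the product of dbh, had 223 reads in the cyproconazole library and 202 in the control, a ratio of 0.960 (0.790 to 1.17). The dopamine transporter gene slc6a3, matched by its gene identifier, had 57 reads in the cyproconazole library and 33 in the control, a ratio of 1.5 (0.961 to 2.38) that holds 1. It was the single gene of the list past 1.5-fold by reads, where 2.86% of all genes were that much higher, and was not past it on the log2(FPKM + 1) scale. The second tyrosine hydroxylase gene of fish, th2, had 10 reads in each library, below the minimum. The monoamine oxidase gene mao, which breaks down all 3 monoamines, had 0.933 (0.841 to 1.03).

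Transcription factor genes of catecholamine neurons were higher more often than lower. Of 12 measured, 6 had an interval above 1 and 0 below 1, with a median log2 read ratio of 0.19. The backgrounds were 15.8% and 14.5% over all genes, and 22.7% and 21.0% among genes with at least 1000 reads. Of the 6, ascl1a and insm1a are also counted with the serotonin regulators. Medians of the other regulator lists were 0.21 for motor neurons, 0.16 for serotonin neurons and -0.08 for GABA neurons, and some genes stand on several lists. Phox2 factors bind the Dbh promoter in mammals, and their genes phox2bb and phox2a had 646 and 660 reads in the cyproconazole library, against 434 and 476 reads in the control. Their ratios were 1.29 (1.14 to 1.46) and 1.21 (1.07 to 1.36). The gene otpa, needed for dopamine neurons of the diencephalon, had 1.17 (1.06 to 1.29), while its paralog otpb had 0.967 (0.869 to 1.08). Both phox2 genes are also expressed in cranial motor neurons and in the enteric nervous system, so their level is not that of noradrenaline cells alone. The part of the phox2 genes in the dbh value was not tested.

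Markers of other cells near or related to noradrenaline cells were read in an adrenal and sympathetic list, which holds sympathetic genes, secretory granule genes and genes of the steroid-making interrenal cells. Of its 7 measured genes, 2 had an interval above 1 (star and phox2bb) and 1 below 1 (chgb), where 15.8% and 14.5% of all genes did so. Of these, phox2bb is also counted with the catecholamine regulators. No gene was at 0, and the summed FPKM was 63.1 in the cyproconazole library and 58.5 in the control. The cholesterol transporter gene star, of the steroid-making cells that lie beside the chromaffin cells, had 209 reads in the cyproconazole library and 95 in the control, a ratio of 1.91 (1.49 to 2.46). Of the steroid enzyme genes, cyp17a1 had 1.14 (0.959 to 1.36), and cyp11a2 had 27 reads in the cyproconazole library and 10 in the control, below the minimum. The secretory granule genes chga and chgb had 0.908 (0.799 to 1.03) and 0.794 (0.692 to 0.911). The part of these cells in the dbh value was not tested.

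**Figure D3:**
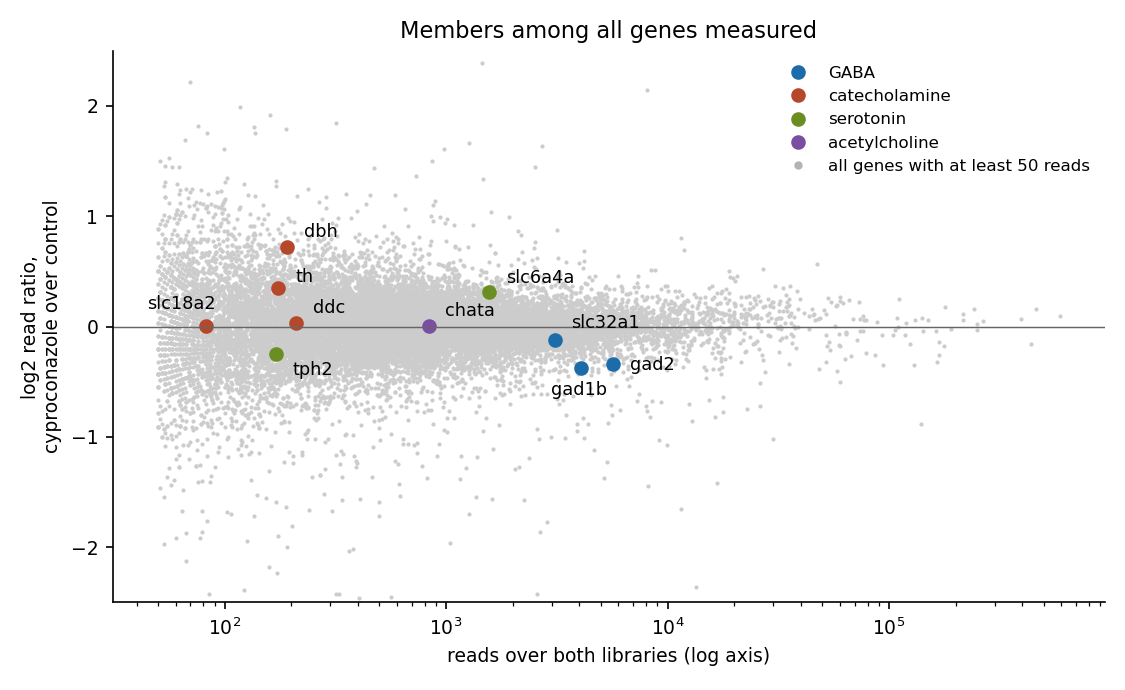
Log2 read ratio of cyproconazole over control against the reads over both libraries (log axis) for all genes with at least 50 reads (grey) and for the 10 members (coloured by class); 12 genes lie outside the plotted range. The spread of grey points narrows with depth, gad1b and gad2 lie in the lower part of it at 4045 and 5676 reads, and dbh lies in the upper part at 191 reads.

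In the serotonin class the reuptake transporter gene was higher, and no difference could be detected for the synthesis gene. The reuptake transporter gene slc6a4a (ENSDARG00000061165) had 18.3 FPKM and 921 reads in the cyproconazole library, against 13.7 FPKM and 643 reads in the control, a read ratio of 1.245 (1.12 to 1.38). Of all genes measured, 10.0% had a ratio as high or higher, and of those with at least 1000 reads, 3.72% did. The synthesis gene tph2 (ENSDARG00000057239), which marks serotonin neurons of the raphe, had 1.65 FPKM and 84 reads in the cyproconazole library, against 1.84 FPKM and 87 reads in the control. Its ratio of 0.839 (0.614 to 1.15) held 1. The upper end of the tph2 interval lay above the lower end of that of slc6a4a, so the intervals overlapped.

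The transporter gene was far more abundant than the synthesis gene, with 11.1 times the FPKM of tph2 in the cyproconazole library and 7.43 times in the control. In the RefSeq annotation of a newer zebrafish assembly slc6a4a overlaps blmh, a peptidase gene, and the handling of reads from overlapping genes is not given in the sources used here. Other members share this limit, since gad2 and tph2 each overlap a protein-coding gene there, gpr158a in the case of gad2, and gad1b, slc32a1 and chata each overlap a long noncoding RNA gene. The 4 catecholamine genes overlap none. Reads of blmh numbered 1099 in the cyproconazole library and 975 in the control, a ratio of 0.980 (0.898 to 1.07). The summed ratio of the serotonin class, 1.20 (1.09 to 1.32), rests on slc6a4a and is that of tph2, 0.839, without it.

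Of 7 other measured genes of serotonin handling, 2 had an interval above 1 and 0 below 1, where 15.8% and 14.5% of all genes did so. The 2 are asmt2 and aanat2, which act in making melatonin from serotonin, and the other 5 had an interval that holds 1. The tryptophan hydroxylase genes outside the raphe, tph1a and tph1b, had 27 and 59 reads in the cyproconazole library, against 36 and 48 reads in the control, with ratios of 0.652 (0.381 to 1.10) and 1.07 (0.718 to 1.60). The second serotonin transporter gene, slc6a4b, had 13 reads in the cyproconazole library and 22 in the control, below the minimum. The raphe regulator gene fev had 69 reads in the cyproconazole library and 54 in the control, a ratio of 1.11 (0.767 to 1.62), and the serotonin receptor gene htr1aa had 1.21 (0.887 to 1.64) and htr2cl1 0.988 (0.813 to 1.20). Of 7 measured regulators of serotonin neurons, 3 had an interval above 1 (gata2a, ascl1a and insm1a) and 0 below 1, where 15.8% and 14.5% of all genes did so. None of the 3 is confined to serotonin neurons. They are counted on other lists too, gata2a with the GABA regulators and ascl1a and insm1a with the catecholamine regulators.

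The hydroxylases encoded by th and tph2 need tetrahydrobiopterin, and genes that make or recycle this cofactor mostly had intervals that hold 1. Of 8 measured, 1 had an interval below 1 and 0 above 1, where 14.5% and 15.8% of all genes did so, with a median log2 read ratio of -0.14. The gene below 1 was gch2, which in zebrafish serves pigment cells, with 48.5 FPKM in the cyproconazole library and 60.0 FPKM in the control and a ratio of 0.801 (0.756 to 0.849). The gene gch1, which serves monoamine neurons, had 477 reads in the cyproconazole library and 456 in the control, a ratio of 0.909 (0.798 to 1.04). The highest ratio of the list was that of qdprb1, which recycles the cofactor, at 1.28 (0.977 to 1.68).

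The acetylcholine gene chata (ENSDARG00000015854) had nearly equal values, with 8.58 FPKM and 447 reads in the cyproconazole library, against 8.95 FPKM and 388 reads in the control. Its read ratio was 1.001 (0.872 to 1.15), an interval that holds 1. Next to chata in the genome lies slc18a3a, which encodes the vesicle transporter of acetylcholine, and such neighbours are regulated together in many animals. It had 14.0 FPKM and 282 reads in the cyproconazole library, against 13.9 FPKM and 285 reads in the control, a ratio of 0.860 (0.727 to 1.02). The choline reuptake gene slc5a7a had 0.938 (0.794 to 1.11), and the acetylcholine-splitting enzyme gene ache had 0.951 (0.915 to 0.990) at 5269 reads in the cyproconazole library and 4814 in the control. Of 6 other symbols sought for acetylcholine handling, 3 were found, and the paralog genes chatb and slc18a3b were not among them.

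Of 10 measured motor neuron regulators, 4 had an interval above 1 and 0 below 1, with a median log2 read ratio of 0.21, where 15.8% of all genes and 22.7% of those with at least 1000 reads had an interval above 1. The 4 genes were mnx1 at 1.48 (1.08 to 2.05), isl2a at 1.251 (1.12 to 1.40), the progenitor gene olig2 at 1.24 (1.03 to 1.49) and nkx6.1 at 1.21 (1.04 to 1.42). In whole embryos the levels of these 4 genes need not be those of motor neurons alone. The gene isl1, which is also active in sensory neurons, heart and pancreas, had 1.04 (0.976 to 1.12). Of 14 neural progenitor genes, 5 had an interval above 1, 1 below 1 and 8 an interval that holds 1, with a median of 0.10. The highest ratios of this list were those of nes, 1.44 (1.27 to 1.64), and gfap, 1.37 (1.33 to 1.41). Levels of gfap were 179 FPKM in the cyproconazole library and 130.0 FPKM in the control. Also above 1 was notch1a at 1.17 (1.07 to 1.29), but its FPKM ratio was 1.015. The gene below 1 was notch3 at 0.879 (0.833 to 0.928). The part of these cells in the values of the members was not tested.

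**Figure D4:**
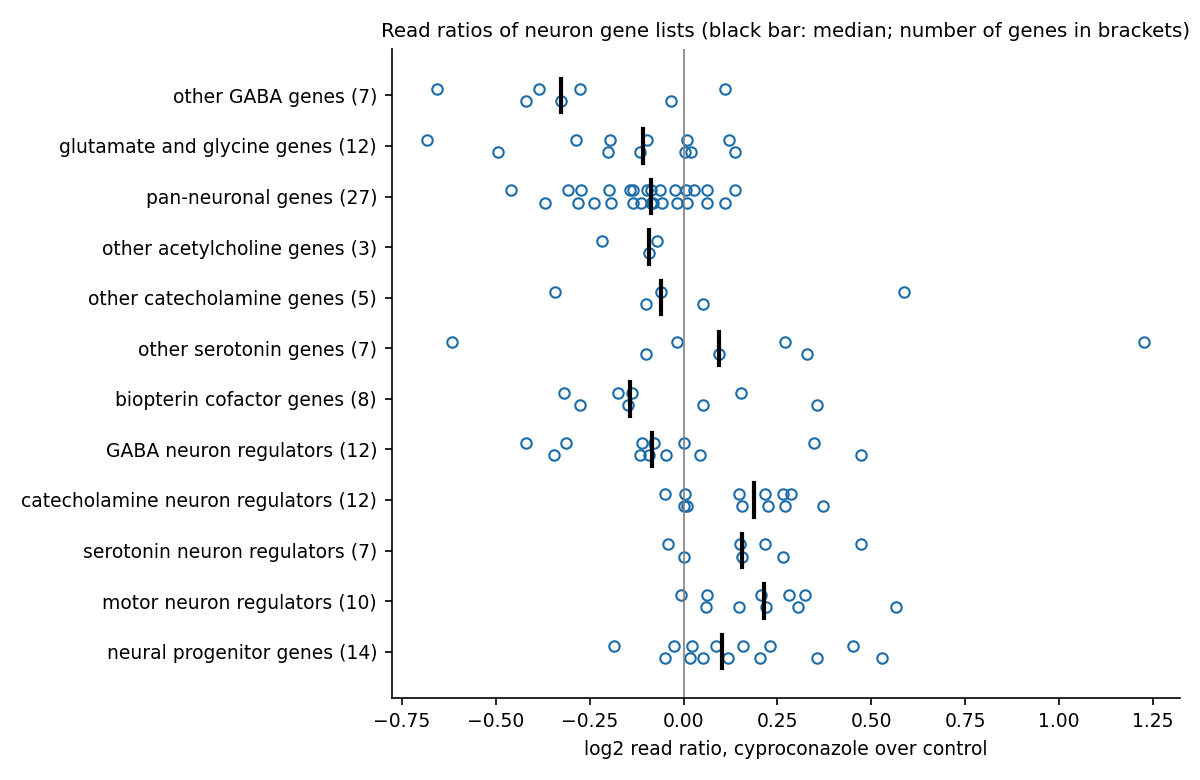
Log2 read ratio of cyproconazole over control of each measured gene (open circles) in 12 neuron gene lists, with the list's median as a black bar; a gene on several lists is drawn in each. The medians run from -0.33 for the other GABA genes to 0.21 for the motor neuron regulators.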

How the data were processed

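The members and the gene lists were chosen with earlier results of these data known. The authors deposited 1 table with an FPKM value per library, per the file headers, next to a mean over both libraries of counts that the authors normalized by size factors, here called a signal. The authors' deposited comparison also gives a log2 ratio, its standard error, a score (their quotient) and a p-value, none of them used as a result, since no group has a replicate. The submitters' processing notes name Cufflinks 2.1.1, HTSeq 0.6.1, TopHat2 2.0.4, Picard 1.29, SAMtools and the build GRCz10, without roles. How reads of paralogs (gad1a and gad1b, th and th2) or overlapping genes were treated is not stated there.

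Whole reads were recovered for 23790 genes (99.9%), including all 10 members. Every mean count is a whole multiple of 1 step within 0.01 of it, with the libraries' steps in the ratio 68 to 59, and among the whole-read pairs that fit, a negative binomial model with a normal prior picked the pair whose standard error came within 1e-05 of the deposited value, provided that every other pair was off by 10 times as much or more. For 7180 genes, slc18a2 among them, only 1 pair was possible, and it was kept without this condition. Library sizes were balanced with the trimmed mean of M values (30% of ratios and 5% of levels trimmed). Called means at least 1.5-fold on the log2(FPKM + 1) scale, which understates the change of low genes, or by reads, among genes with at least 50 reads. Named are the members, their direct partners and up to 4 genes of each other list, those with the counting interval farthest from 1. The genes elavl3, elavl4, snap25a, snap25b, gap43, map2, cyp17a1, cyp11a2, htr2cl1, qdprb1, slc6a5, otpb, slc6a2, mao, fev, htr1aa, gch1, isl1, chga, slc18a1, aanat1, dlx5a, dlx6a, slc6a11a, tyrp1b, cdx1b, slc20a1a, pdzk1 and genes of no list were named after their values were seen. Of 177 list symbols, 164 were found, 4 of them by gene identifier, and 1 is not reported here by name. Python 3.11.15, NumPy 2.4.6, pandas 2.3.3, SciPy 1.17.1 and Matplotlib 3.10.9 were used. Overlaps are from the RefSeq gene table of GRCz12tu. Other scalings, added values, minimums and thresholds were tried, and class sums without single members were chosen after seeing the data.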

Additional observations from a re-analysis of the deposited data

How the results depend on the processing

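No paired analysis was possible because the cyproconazole and control groups hold a single library each, and so none could be left out. Under 4 other scalings the 40 member ratios moved by at most 0.288%, and 0 of their counting intervals changed side of 1. The count of members at least 1.5-fold higher was 1 by FPKM and by reads. It was 0 with 5 FPKM added, 0 by reads with at least 200 reads (which leaves dbh out), 0 with a 2-fold threshold and 2 with a 5/4-fold threshold on either measure, and 2 with an interval wholly above 1. The pair at 5/4-fold was dbh and slc6a4a by FPKM but dbh and th by reads, where the interval of th holds 1. The count at least 1.5-fold lower was 0 on both measures, 2 with a 5/4-fold threshold on either, and 3 with an interval wholly below 1. Shares over all genes were computed for the main 1.5-fold setting and the counting interval only. Counts at the other settings therefore have no background and cannot be read as more or fewer than among all genes. The summed catecholamine ratio was 1.11 (0.918 to 1.33) without dbh, and the summed serotonin ratio was 0.839 (0.614 to 1.15) without slc6a4a, which turns its direction and leaves tph2 alone. The summed GABA ratio was 0.831 without gad2 and 0.834 without gad1b. Depth limits th, dbh, ddc, tph2 and slc18a2 most, each with at most 211 reads over both libraries.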

Other observations

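Serotonin is also the starting point of melatonin, which the pineal gland makes with an acetyltransferase and a methyltransferase. The acetyltransferase gene of the zebrafish pineal, aanat2, had 2.12 FPKM and 70 reads in the cyproconazole library, against 0.899 FPKM and 26 reads in the control, a read ratio of 2.34 (1.47 to 3.83). The methyltransferase gene asmt2 had 282 reads in the cyproconazole library and 195 in the control, a ratio of 1.26 (1.04 to 1.52). The retinal acetyltransferase gene aanat1 had 27 reads in the cyproconazole library and 15 in the control, below the minimum of 50 reads.

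Markers of organs in which ddc is also active were lower in several cases. The interval of ddc, 0.772 to 1.35, held 1 but also held the ratios of tfa and fabp2 given here, though not those of fabp10a and apoa4a. Of 7 measured genes of gut, liver and kidney, 4 had a counting interval below 1 and 0 above 1, among them the liver transferrin gene tfa at 0.799 (0.785 to 0.813), the liver fatty acid binding gene fabp10a at 0.702 (0.575 to 0.856) and the intestinal gene fabp2 at 0.810 (0.736 to 0.893). The apolipoprotein gene apoa4a had 50 reads in the cyproconazole library and 152 in the control, a ratio of 0.286 (0.203 to 0.396). The remaining measured genes of the list had intervals that hold 1. They were cdx1b at 1.06 (0.837 to 1.34), slc20a1a at 1.05 (0.927 to 1.20) and pdzk1 at 0.823 (0.674 to 1.01). The FPKM ratio of slc20a1a, 1.28, lay above its interval. Of 8 pigment cell genes, 1 had an interval above 1 (xdh) and 2 below 1 (gch2 and pnp4a). Of 7 measured genes of enterochromaffin and islet cells, 2 had an interval below 1 (chgb and pax6b) and 0 above 1. In whole embryos the levels of these genes need not be those of such cells alone, and chgb is also counted on the adrenal and sympathetic list. The background for each of these lists is 14.5% of all genes with an interval below 1 and 15.8% above 1. The second vesicular monoamine transporter gene, slc18a1, had 12 reads in the cyproconazole library and 2 in the control, below the minimum, with a ratio of 5.22 (1.16 to 48.0).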
